A study of Mus musculus with 12 samples.

Results

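Effector chemokine receptors are the receptors that primed T cells use to follow chemokines into tissues. Of the 40840 gene symbols in the count files of 12 RNA-seq libraries, 9 were taken by name as this family: Ccr2, Ccr4, Ccr6, Ccr8, Ccr9, Ccr10, Cxcr3, Cxcr6 and Cx3cr1. All 9 were listed, and 8 were among the 13570 genes with enough counts to be tested. Ccr10 was not tested, and Ccr9 was tested only through 3 libraries from Il6-/- recipients, in which it had 33, 26 and 21 counts.

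OTII cells, whose transgenic TCR makes CD4+ T cells see an ovalbumin (OVA) peptide, were transferred as donor cells into WT or Il6-/- hosts. All hosts were sensitized intranasally with house dust mite (HDM) extract together with OVA, and per the study's methods the extract contained LPS. OTII cells were sorted from the mediastinal lymph nodes (mLN) on Day 3 or Day 5, after staining for B220, CD4, CD44 and the congenic marker CD45.1. The study asks how IL-6 in the host shapes the priming of these cells. The 4 groups, with 3 libraries each, were OTII cells primed in WT or Il6-/- hosts and taken on Day 3 or on Day 5. Il6 is deleted throughout the Il6-/- host, whereas the donor cells carried it in every group, so that Il6 itself (0 to 5 reads in a library) does not check the labels. The sample records give the tissue as blood and the series text and methods as mLN, and they do not say how many animals gave a library. The recipients' age was not given for these samples. Where nothing says that libraries came from separate animals, the p-values measure only the spread between these libraries.

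Between 16125947 and 26111657 reads per library fell on genes. Apart from Trbc1, the listed CD4 T cell genes were abundant in every library, with Cd4 between 825 and 1350 CPM. CPM are reads of a gene relative to all reads on genes in its library, scaled by TMM factors. Trbc1 varied from 5.16 CPM (Il6-/- replicate 2, Day 5) to 543 CPM (WT replicate 3, Day 5). Markers of other cells ranged widely. Ms4a1 reached 0.312 CPM, Ncr1 0.039 and Itgax 0.117, and Klra8 and Clec9a had no count. In contrast, Cd8b1 lay at 56.3 to 84.2 CPM (with Cd8a at 1.70 or less), Bst2 at 25.9 to 48.7 and Klrb1c at 3.75 to 36.5 CPM in all libraries, and Lyz2 reached 28.3, S100a8 46.5 and Sftpc 14.1 CPM in single libraries. Unless stated, levels are CPM, fold changes are log2 values from edgeR's quasi-likelihood model of the 12 libraries with their SE, and FDR is that test's p-value after Benjamini-Hochberg adjustment over all genes tested. A gene passed at an FDR under 0.05.

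Chemokine receptors sit in the cell membrane and couple mainly to inhibitory G proteins of the Gai class, whose release leads to integrin activation and directed movement. Naive T cells enter lymph nodes through Ccr7, and priming adds receptors that differ between helper subsets. Ccr4 binds Ccl17 and Ccl22 and is associated with Th2 cells, regulatory T cells and homing to skin and lung. Ccr8 binds Ccl1 and Ccl8 and is found on Th2 and regulatory T cells, and Ccr6 binds Ccl20 and marks Th17 cells. Cxcr3 binds Cxcl9, Cxcl10 and Cxcl11 and is a target of the Th1 factor T-bet, encoded by Tbx21. Cxcr6 binds Cxcl16 and marks tissue-resident T cells, Cx3cr1 binds Cx3cl1 and marks cytotoxic effector T cells and monocytes, and Ccr2 binds Ccl2 and is best known on monocytes. Ccr9 and Ccr10 guide T cells to the gut and to the skin through Ccl25 and Ccl27.

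Of the 9 genes, 6 lie on chromosome 9 of GRCm39 (gene models from GENCODE vM39). In the order of their positions these are Ccr4 (114319384 to 114333984), Cx3cr1 (119877749 to 119898945), Ccr8 (119921180 to 119924263), Ccr9 (123507181 to 123613395), Cxcr6 (123635534 to 123640825) and Ccr2 (123901982 to 123913594). Ccr6 lies on chromosome 17 (8454869 to 8475973), Ccr10 on chromosome 11 (101063823 to 101066270) and Cxcr3 on chromosome X (100775141 to 100777875). Ccr4, Cx3cr1, Ccr10 and Cxcr3 are on the minus strand and the others on the plus strand. Counting ignored strand, so reads shared with an overlapping gene cannot be assigned. Exons of Ccr6 overlapped those of Gm33799 over 1145 of their 2450 bases, and Gm33799 had no count in any library. Reads in that stretch may have gone to neither gene, so the level of Ccr6 per kb may be understated. Those of Ccr9 overlapped Slc6a20a, Gm17200 and Gm17021 over 2958 bases, with 0 or 1 count for Slc6a20a, and those of Cx3cr1 overlapped Gm33858 over 78 bases.

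The promoters of Ccr6, Ccr8 and Cxcr3 are shown because these were the 3 members that rose in Il6-/- recipients on Day 3. Each runs from 250 bases before the start of the canonical transcript to 50 bases after it, read 5′ to 3′ on the strand of the gene, at chr17:8454619-8454918 (plus strand) for Ccr6, chr9:119920930-119921229 (plus strand) for Ccr8 and chrX:100777826-100778125 (minus strand) for Cxcr3. Capitals mark a match to 1 of 4 motifs searched on both strands: the GAS motif of STAT factors (TTCNNNGAA), a GATA motif (AGATAA), a T-box motif (AGGTGTGA) and a nuclear receptor half-site (AGGTCA).
Ccr6: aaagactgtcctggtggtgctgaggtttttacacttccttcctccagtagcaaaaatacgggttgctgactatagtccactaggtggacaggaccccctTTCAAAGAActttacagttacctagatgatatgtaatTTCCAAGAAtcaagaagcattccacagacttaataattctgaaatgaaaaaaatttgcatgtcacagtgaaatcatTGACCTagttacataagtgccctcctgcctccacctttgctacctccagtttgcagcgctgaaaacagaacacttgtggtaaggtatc
Ccr8: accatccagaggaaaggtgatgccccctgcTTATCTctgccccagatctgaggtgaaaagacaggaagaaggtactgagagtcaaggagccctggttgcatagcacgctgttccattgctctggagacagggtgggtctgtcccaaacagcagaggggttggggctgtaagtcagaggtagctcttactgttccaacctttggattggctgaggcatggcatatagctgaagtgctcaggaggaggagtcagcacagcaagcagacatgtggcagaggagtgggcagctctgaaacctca
Cxcr3: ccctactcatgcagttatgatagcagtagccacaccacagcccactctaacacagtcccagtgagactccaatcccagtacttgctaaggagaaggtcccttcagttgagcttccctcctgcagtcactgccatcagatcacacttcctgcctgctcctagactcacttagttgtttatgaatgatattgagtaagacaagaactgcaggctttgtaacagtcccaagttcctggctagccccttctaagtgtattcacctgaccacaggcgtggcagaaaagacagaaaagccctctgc
The Ccr6 promoter held 2 GAS motifs, which began 151 and 114 bases before the start, and a nuclear receptor half-site on the other strand 38 bases before it. Ccr8 held a GATA motif on the other strand, 220 bases before the start, and Cxcr3 held none of the 4. Over all 9 members the GAS motif was found in 1, the GATA motif in 2 (Ccr8 and Ccr2), the T-box motif in 0 and the nuclear receptor half-site in 1. Among 21770 promoters of the same length the shares were 8.81%, 10.6%, 1.13% and 15.1%. No motif overlapped another in these windows. A match of letters is a description and no evidence of binding.

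Which receptors the cells carried most of was read per length, as CPM per kb of exon. By this length Ccr4 ranked first in every group, at 42.6 CPM per kb in WT recipients on Day 3, 36.5 in Il6-/- recipients on Day 3, 25.8 in WT recipients on Day 5 and 40.2 in Il6-/- recipients on Day 5. In WT recipients on Day 3 it was followed by Ccr6 (18.5), Cxcr3 (13.8) and Ccr8 (10.3), whose libraries overlapped from each to the next, and then by Cxcr6 (7.16). In Il6-/- recipients on Day 3 Ccr4 was no longer apart: the libraries of Ccr4, Ccr6 (32.0) and Cxcr3 (30.9) overlapped, with Ccr8 (17.3) and Cxcr6 (7.59) lower in turn. On Day 5 in WT recipients Cxcr3 (11.3), Ccr8 (11.2), Ccr6 (8.16) and Cxcr6 (8.02) could not be ordered beyond the spread between libraries, as each overlapped the others. In Il6-/- recipients on Day 5 Cxcr3 (19.6), Cxcr6 (13.8), Ccr6 (10.3) and Ccr8 (10.2) overlapped from each to the next, while every library of Cxcr3 (13.1 to 23.0) was above every library of Ccr6 (8.30 to 12.1) and Ccr8 (8.51 to 11.1). Cx3cr1 lay between 0.246 and 0.771 CPM per kb as a group mean, and Ccr2, Ccr9 and Ccr10 at 0.351 or less. With the length of the longest transcript in place of all exons, the mean of Ccr6 over the groups moved from 17.2 to 23.9 CPM per kb and that of Ccr9 from 0.0488 to 0.0897. By that length Ccr6 (78.4 CPM, 1769 bases) ranked above Ccr4 (113 CPM, 2845 bases) in Il6-/- recipients on Day 3. The orders above that involve Ccr6 therefore rest on the length of all exons.

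**Figure D1:**
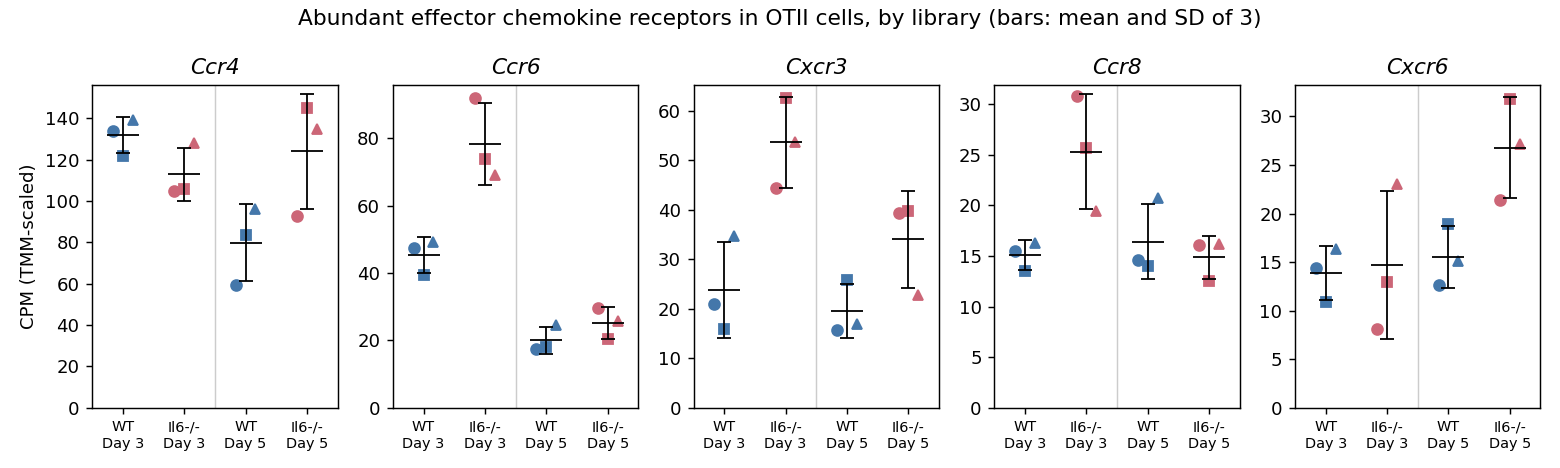
CPM of the 5 abundant receptors in each library (circles, squares and triangles are replicates 1, 2 and 3; blue, WT recipients; red, Il6-/- recipients), with the mean and SD of each group in black and 1 vertical scale per gene, starting at 0. On Day 3, the groups are apart for Ccr6, Cxcr3 and Ccr8 with the Il6-/- libraries higher, and on Day 5 for Cxcr6.

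On Day 3, 3 of the 8 tested receptors were higher in OTII cells from Il6-/- recipients than in those from WT recipients: Cxcr3, Ccr6 and Ccr8. None was lower by the test, and Ccr4, the most abundant, was not higher. Over all genes tested, 7.52% were higher and 6.19% lower in this comparison, a smaller share than 3 of 8, a difference that was not tested. Of the genes that passed, 54.9% were higher with TMM, 44.8% with upper-quartile scaling and 39.3% with scaling by total count.

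For Cxcr3, the receptor of interferon-induced chemokines, the libraries from WT recipients read 20.9, 15.9 and 34.6 CPM (mean 23.8 ± 9.68, SD, n = 3) and those from Il6-/- recipients 44.4, 62.6 and 53.7 CPM (53.6 ± 9.14). The groups did not overlap, although WT replicate 3 stood closer to the Il6-/- libraries than the other two. Its log2 fold change was 1.17 (SE 0.268, FDR = 0.00906), and it was the only member that passed with at least a 2-fold change, as 2.74% of all genes did. In bulk RNA, more cells that carry a receptor and more of its RNA per cell cannot be told apart.

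For Ccr6, the receptor of Ccl20, the WT libraries read 47.4, 39.3 and 49.3 CPM (45.3 ± 5.32, SD, n = 3) and the Il6-/- libraries 92.1, 73.8 and 69.2 CPM (78.4 ± 12.1). Every Il6-/- library was above every WT library, and Ccr6 rose by a log2 fold change of 0.79 (SE 0.157, FDR = 0.00379). This call held whichever library was left out.

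Ccr8 read 15.5, 13.5 and 16.3 CPM in WT recipients (15.1 ± 1.44, SD, n = 3) and 30.8, 25.7 and 19.5 CPM in Il6-/- recipients (25.3 ± 5.69). The groups did not overlap, and the Il6-/- libraries were the more widely spread. The log2 fold change was 0.75 (SE 0.184, FDR = 0.0141). Without WT replicate 2 both Ccr8 (0.67, FDR = 0.0728) and Cxcr3 (0.95, FDR = 0.0529) missed the threshold, and without Il6-/- replicate 1 Ccr8 did (0.58, FDR = 0.0845).

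Ccr4, a receptor of Th2 cells, read 134, 122 and 139 CPM in WT recipients on Day 3 and 105, 106 and 128 CPM in Il6-/- recipients. The groups overlapped at 1 library each, and the log2 fold change was -0.22 (SE 0.166, FDR = 0.441). Set against Ccr4 in the same library, in which gene length cancels between libraries, Cxcr3 stood at 0.131 to 0.249 of the CPM of Ccr4 in WT recipients and at 0.420 to 0.593 in Il6-/- recipients. For Ccr6 the same ratio was 0.322 to 0.355 against 0.541 to 0.873. Both ratios set a receptor that rose against one that did not pass. The ratio of Ccr6 to Cxcr3, which both rose, overlapped (1.42 to 2.47 against 1.18 to 2.08).

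Cxcr6, the receptor of Cxcl16, read 14.4, 10.9 and 16.4 CPM in WT recipients and 8.08, 13.0 and 23.0 CPM in Il6-/- recipients. The Il6-/- libraries spread on both sides of the WT libraries, and the log2 fold change of 0.09 (SE 0.288, FDR = 0.887) did not keep its sign in every setting. Together with Ccr2, 4 of the 8 tested members had groups that did not overlap on Day 3, where 36.2% of all genes tested did the same. The median log2 fold change of the 8 was 0.417, but 0.0889 for the 7 without Ccr9, which was tested only through libraries where it was high, and that of all genes tested was 0.0145.

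Markers of CD4 T cells and of other cells also differed between the recipients on Day 3. The 10 CD4 T cell markers summed to 9230 to 10500 CPM in WT and 8450 to 8530 CPM in Il6-/- recipients, with Cd28 (-0.48, FDR = 0.00181), Trac (-0.34, FDR = 0.00928) and Trbc2 (-0.37, FDR = 0.00554) lower. The summed level of 6 B cell markers was 6.55 to 8.69 CPM in WT recipients and 13.7 to 14.6 CPM in Il6-/- recipients, with Cd22 higher (3.03, FDR = 0.000444), Pax5 lower (-2.26, FDR = 0.0389) and Ms4a1 at 0.0494 CPM or less. The 6 markers of CD8 T and NK cells summed to 62.4 to 75.0 against 83.0 to 112 CPM, with Klrb1c higher (2.11, FDR = 7.74e-06), Klra8 at 0 and Ncr1 at 0.039 CPM or less. The 5 markers of plasmacytoid dendritic cells, which include Ccr9, summed to 38.2 to 44.8 against 54.0 to 61.4 CPM, with Tcf4 higher (1.52, FDR = 0.00036). The 5 markers of regulatory T cells, cells that can carry Ccr4, Ccr6 and Ccr8, summed to 435 to 460 against 507 to 608 CPM. Of these, Il2ra (1.59, FDR = 0.000974) and Tnfrsf4 (0.55, FDR = 0.00208) rose and Ikzf2 fell (-0.44, FDR = 0.0128), while Foxp3, which defines the lineage, read 6.08 to 10.1 CPM in WT and 3.92 to 5.81 CPM in Il6-/- recipients (-0.58, FDR = 0.311). The lung epithelial gene Sftpc passed (5.59, FDR = 0.0407), with 0.156, 0 and 0 CPM in WT and 0.0528, 9.33 and 0.427 CPM in Il6-/- libraries. The part of these markers' cells in the receptor differences was not tested.

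**Figure D2:**
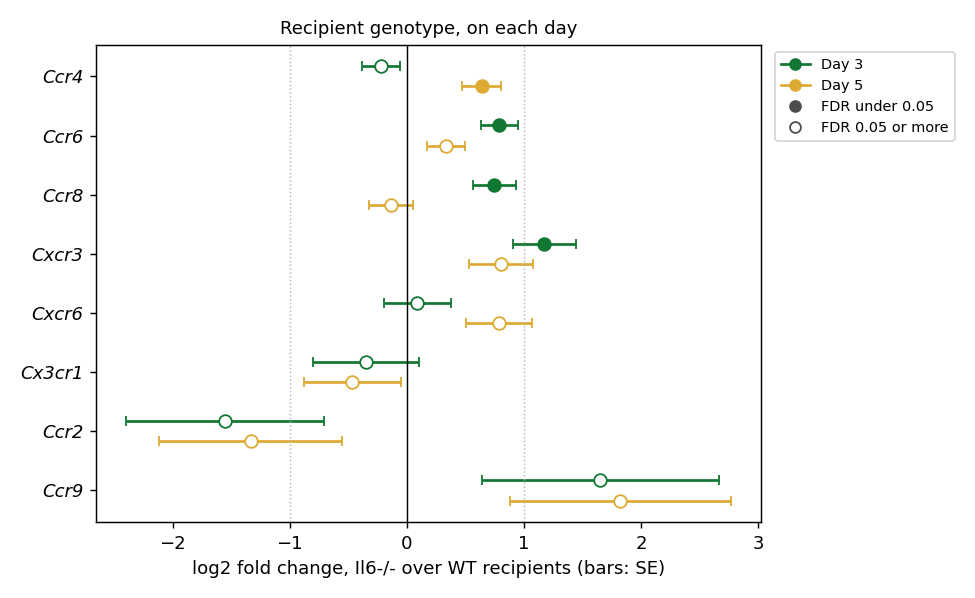
Log2 fold change of Il6-/- over WT recipients (horizontal axis, bars are SE) for the 8 tested receptors, on Day 3 in green and on Day 5 in yellow, with filled points for an FDR under 0.05 and dotted lines at a 2-fold change. Cxcr3 (1.17), Ccr6 (0.79) and Ccr8 (0.75) are filled on Day 3 and Ccr4 (0.64) on Day 5, and the widest bars belong to Ccr9 and Ccr2, the tested genes with the fewest counts.

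On Day 5, Ccr4 was the 1 member of 8 that passed in the main fit, which used no replicate numbers, and it was higher in Il6-/- recipients. Over all genes tested, 1.27% were higher and 3.35% lower (27.5% of those that passed were higher, and 40.8% with scaling by total count). Ccr4 read 59.5, 83.6 and 96.3 CPM in WT recipients (79.8 ± 18.7, SD, n = 3) and 93.0, 145 and 135 CPM in Il6-/- recipients (124 ± 27.6). Il6-/- replicate 1 lay below WT replicate 3, so the groups overlapped. The log2 fold change was 0.64 (SE 0.168, FDR = 0.0427), and no member both passed and changed at least 2-fold, as 1.14% of all genes did. The call was lost in 9 of 12 fits that each left out a library, with FDR up to 0.175 without WT replicate 1 on Day 5. It was kept without WT replicate 1 on Day 3, WT replicate 3 on Day 5 or Il6-/- replicate 1 on Day 5, and was lost in a fit of the Day 5 libraries alone (0.63, FDR = 0.12).

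Cxcr3 and Cxcr6 had fold changes of about the same size on that day without passing in the main fit. Without a low-count filter both passed (FDR = 6.04e-08 for Cxcr3 and 3.01e-05 for Cxcr6), where 1397 genes passed in place of 626. Cxcr6 also passed in DESeq2 (FDR = 0.0413). Cxcr3 read 15.8, 25.7 and 16.9 CPM in WT recipients (19.5 ± 5.43) and 39.4, 39.8 and 22.7 CPM in Il6-/- recipients (34.0 ± 9.77). Il6-/- replicate 3 fell within the WT libraries, and the log2 fold change was 0.80 (SE 0.271, FDR = 0.107). Cxcr6 read 12.6, 18.9 and 15.1 CPM in WT recipients (15.5 ± 3.19) and 21.4, 31.8 and 27.2 CPM in Il6-/- recipients (26.8 ± 5.20). It was the 1 member whose groups did not overlap on Day 5, where 19.6% of all genes tested did not, with a log2 fold change of 0.78 (SE 0.284, FDR = 0.13).

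Libraries with the same replicate number deviated together on Day 5, and a fit with the replicate block, which compares them within each number, passed 3 members. In that fit Ccr4 was higher by 0.64 (FDR = 0.000257), Cxcr3 by 0.79 (FDR = 0.0257) and Cxcr6 by 0.79 (FDR = 0.0153), and 11.7% of all genes passed in either direction.

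Ccr6 and Ccr8, which had passed on Day 3, did not pass on Day 5. Ccr6 read 17.4, 18.1 and 24.5 CPM in WT and 29.6, 20.3 and 25.7 CPM in Il6-/- recipients (log2 fold change 0.33, SE 0.165, FDR = 0.28), and Ccr8 read 14.6, 14.0 and 20.7 CPM against 16.1, 12.5 and 16.2 CPM (-0.14, SE 0.187, FDR = 0.751). Both pairs of groups overlapped. The median log2 fold change of the 8 tested members was 0.486 on Day 5 (0.334 without Ccr9), beside 0.0107 over all genes.

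On Day 5 the B cell markers summed to 8.99 to 11.5 CPM in WT and 12.3 to 16.6 CPM in Il6-/- recipients, those of CD8 T and NK cells to 87.3 to 109 and 80.7 to 97.9 CPM, those of plasmacytoid dendritic cells to 38.4 to 44.5 and 36.6 to 40.9 CPM, and those of regulatory T cells to 513 to 590 and 516 to 608 CPM. Of these 4 lists, the B cell markers alone did not overlap, and no gene of that list passed, while Klrb1c was lower in Il6-/- recipients (-0.60, FDR = 0.0497). The CD4 T cell markers summed to 15300 to 15800 CPM in WT and 13200 to 15000 CPM in Il6-/- recipients, with Cd3d lower (-0.37, FDR = 0.0366). The 4 plasma cell markers summed to 1.30 to 1.99 CPM in WT and 0.645 to 0.937 CPM in Il6-/- recipients. The part of such cells in the result for Ccr4 was not tested.

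The genotype effects of the days were compared directly as an interaction, the Day 3 log2 fold change minus that on Day 5. Ccr4 passed, at -0.86 (SE 0.236, FDR = 0.0499), where 4.92% of all genes passed (63.5% of these with a positive difference, 52.8% with upper-quartile scaling and 35.2% with scaling by total count). Its 2 effects had opposite signs, -0.22 on Day 3 and 0.64 on Day 5, and the call sat at the threshold: it was lost in 10 of 12 fits that each left out a library (FDR 0.0559 to 0.127), and was kept without WT replicate 3 or Il6-/- replicate 1 of Day 5. Ccr8 differed by 0.88 (SE 0.262, FDR = 0.0664), which did not pass. For Ccr6 the difference was 0.46 (SE 0.227, FDR = 0.279), for Cxcr3 0.37 (SE 0.379, FDR = 0.639) and for Cxcr6 -0.70 (SE 0.404, FDR = 0.358). Ccr8 did pass with the replicate block (0.86, FDR = 0.022), in DESeq2 (0.86, FDR = 0.0279), without a low-count filter (0.88, FDR = 0.00322) and without Il6-/- replicate 3 of Day 3 (1.04, FDR = 0.0371), so that its call depends on the setting. Ccr4 passed with the replicate block as well (-0.87, FDR = 0.000466), where 1564 genes passed in place of 668. For Ccr6 and Cxcr3, a rise that passed on Day 3 and not on Day 5 was not shown to differ between the days. The remaining tested members, Ccr2 (-0.22), Ccr9 (-0.17) and Cx3cr1 (0.12), had SEs too wide to place the difference on either side of 0. The median over the 8 was -0.0267 (0.116 without Ccr9), and -0.00447 over all genes.

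Between Day 3 and Day 5 in WT recipients, Ccr4 and Ccr6 fell and Cx3cr1 rose. In this comparison 29.5% of all genes rose and 27.1% fell, so that 3 of 8 members is not more than the share of genes in general. Upper-quartile scaling moved the median of all genes by 0.196 in WT and 0.228 in Il6-/- recipients between the days, and scaling by total count by 0.151 in Il6-/- recipients. The share of passing genes that were higher on Day 5 went from 52.1% to 66.5% with upper-quartile scaling in WT, and from 50.2% to 65.0% in Il6-/- recipients (60.4% with scaling by total count). Ccr6 went from 45.3 ± 5.32 to 20 ± 3.91 CPM (SD, n = 3), with every Day 5 library below every Day 3 library, and a log2 fold change of -1.18 (SE 0.163, FDR = 2.04e-05). Ccr4 went from 132 ± 8.80 to 79.8 ± 18.7 CPM, also without overlap (-0.72, SE 0.168, FDR = 0.00187). Cx3cr1, which WT replicate 3 on Day 5 set apart, changed by 1.30 (SE 0.427, FDR = 0.0177). Ccr6 and Cx3cr1 changed at least 2-fold, as 22.1% of all genes did, and 3 members had groups that did not overlap, as did 63.3% of all genes.

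The other members did not pass in WT recipients in the main fit. Ccr8 was at 15.1 ± 1.44 CPM on Day 3 and 16.4 ± 3.71 on Day 5 (log2 fold change 0.12, FDR = 0.585), Cxcr6 at 13.9 ± 2.79 and 15.5 ± 3.19 (0.16, FDR = 0.643) and Cxcr3 at 23.8 ± 9.68 and 19.5 ± 5.43 (-0.29, FDR = 0.381). Their groups overlapped on the 2 days.

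**Figure D3:**
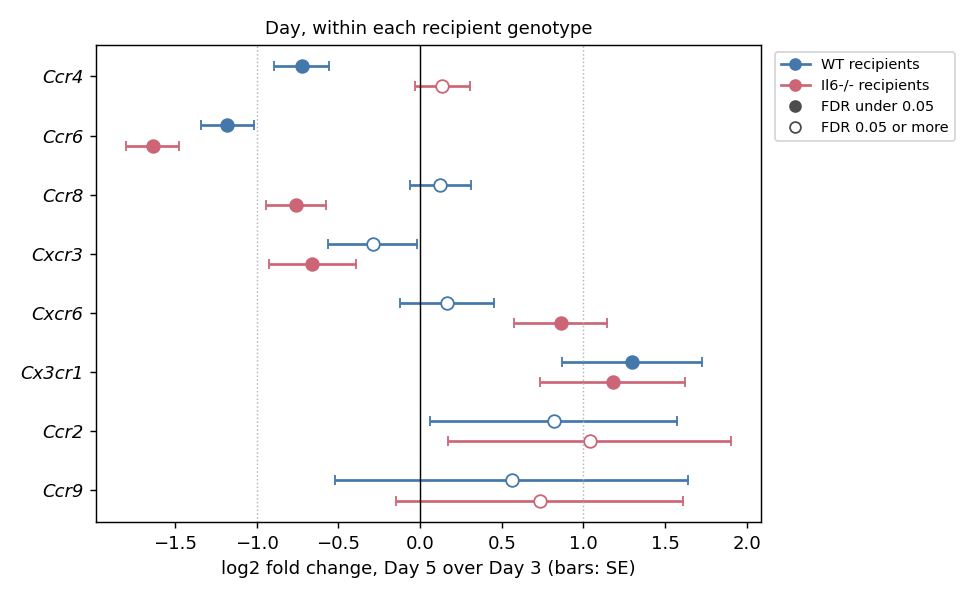
Log2 fold change of Day 5 over Day 3 (horizontal axis, bars are SE) for the 8 tested receptors, in WT recipients in blue and in Il6-/- recipients in red, with filled points for an FDR under 0.05 and dotted lines at a 2-fold change. Ccr6 is on the left in both (-1.18 and -1.63), Cx3cr1 on the right in both (1.30 and 1.18), and Ccr4 is filled in WT recipients alone (-0.72, against 0.14).

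In Il6-/- recipients, 5 of the 8 passed between the days: Ccr6, Ccr8 and Cxcr3 fell and Cxcr6 and Cx3cr1 rose. Over all genes tested, 30.4% rose and 30.1% fell, together about the share seen in the members. Ccr6 went from 78.4 ± 12.1 to 25.2 ± 4.67 CPM (-1.63, SE 0.162, FDR = 5.91e-07, n = 3 in each group), the largest fold of any member here, and its libraries did not overlap between the days. Ccr8 went from 25.3 ± 5.69 to 14.9 ± 2.13 CPM (-0.76, SE 0.185, FDR = 0.00241), and its call held in every fit that left out a library. Cxcr3 went from 53.6 ± 9.14 to 34.0 ± 9.77 CPM (-0.66, SE 0.264, FDR = 0.0422), and the call was lost without Il6-/- replicate 2 (-0.54, FDR = 0.142) or 3 (-0.66, FDR = 0.082) of Day 3, without replicate 3 of Day 5 (-0.44, FDR = 0.186), in DESeq2 (FDR = 0.101), and with upper-quartile (-0.43, FDR = 0.152) or total-count scaling (-0.51, FDR = 0.103).

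Cxcr6 went from 14.7 ± 7.59 to 26.8 ± 5.20 CPM (0.86, SE 0.285, FDR = 0.0166), although its libraries overlapped between the days. Its call was lost without Il6-/- replicate 1 on Day 3, the lowest library (0.56, FDR = 0.0746), without replicate 2 on Day 3 (0.77, FDR = 0.0619) and without replicate 2 on Day 5 (0.73, FDR = 0.055). Ccr4 stayed without a call, at 113 ± 12.9 CPM on Day 3 and 124 ± 27.6 on Day 5 (0.14, FDR = 0.495). Ccr6 and Cx3cr1 changed at least 2-fold, beside 25.9% of all genes, and 4 members (Ccr6, Ccr8, Cxcr3 and Cx3cr1) had groups that did not overlap, beside 65.8%. The interaction given above is also the test of whether the day effect differed between the recipients, and it passed for Ccr4 alone. The median log2 fold change of the 8 members between the days was 0.144 in WT and 0.434 in Il6-/- recipients (0.124 and 0.136 without Ccr9), beside 0.0908 and 0.0872 over all genes.

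Marker levels moved with the day as well. The 10 CD4 T cell markers summed to 9230 to 10500 CPM on Day 3 and 15300 to 15800 CPM on Day 5 in WT recipients, and to 8450 to 8530 and 13200 to 15000 CPM in Il6-/- recipients. Of the 10, 9 were higher on Day 5 in both, beside 29.5% of all genes in WT and 30.4% in Il6-/- recipients. In WT recipients the sum was higher on Day 5 without overlap for the markers of B cells, plasma cells, CD8 T and NK cells, regulatory T cells and lung epithelium (0.494 to 1.48 CPM on Day 3 and 2.44 to 18.4 CPM on Day 5), and in Il6-/- recipients for myeloid and dendritic cells (17.5 to 21.0 and 21.4 to 42.9 CPM), while it was lower for plasmacytoid dendritic cells (54.0 to 61.4 and 36.6 to 40.9 CPM). In Il6-/- recipients the markers of B cells, of CD8 T and NK cells, of regulatory T cells, of lung epithelium (0.475 to 11.2 and 4.66 to 8.95 CPM), of plasma cells and of granulocytes overlapped between the days. Their part in the day effects on the receptors was not tested.

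Among the scarce receptors, Cx3cr1 had 47, 27 and 22 counts in WT recipients on Day 3 and 25, 13 and 30 in Il6-/- recipients. On Day 5 it had 45, 43 and 133 counts in WT and 38, 54 and 51 in Il6-/- recipients. WT replicate 3 on Day 5, with 133 counts or 6.25 CPM, stood above all other libraries, which lay between 0.689 and 3.16 CPM. The same library had the highest summed level of the 12 myeloid and dendritic cell markers (51.7 CPM, against 15.0 to 42.9 in the others) and of the 5 granulocyte markers (84.5 CPM, against 0.271 to 39.5). Csf1r, a receptor of monocytes and macrophages, read 10.2 CPM there and 0.849 to 6.56 elsewhere, while Clec9a was at 0 in all. The part of myeloid cells in the level of Cx3cr1 was not tested.

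Without that library the log2 fold change of Cx3cr1 between the days in WT recipients was 0.62 (FDR = 0.203), and without WT replicate 2 or 3 of Day 3 it was 1.23 (FDR = 0.0535) or 1.17 (FDR = 0.0611). In Il6-/- recipients the rise was 1.18 (SE 0.443, FDR = 0.0312), with all Day 5 libraries (2.01, 3.16 and 2.65 CPM) above all Day 3 libraries (1.32, 0.689 and 1.42). That call was lost without replicate 1 or 2 of Day 3 or replicate 2 or 3 of Day 5, with values of 0.92 to 1.28 and FDR up to 0.119. Between the recipients Cx3cr1 did not pass on either day (-0.35, FDR = 0.685, and -0.47, FDR = 0.597).

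Ccr2, the receptor of Ccl2, had 27, 33 and 25 counts in WT recipients on Day 3 and 0, 12 and 15 in Il6-/- recipients. All WT libraries were above all Il6-/- libraries, but the log2 fold change of -1.55 had an SE of 0.844 (FDR = 0.261). On Day 5 it had 71, 44 and 26 counts in WT and 40, 9 and 3 in Il6-/- recipients, with overlap (-1.33, SE 0.78, FDR = 0.375). The day differences of 0.82 (FDR = 0.369) in WT and 1.04 (FDR = 0.314) in Il6-/- recipients did not pass. On Day 5 the summed myeloid and dendritic markers were 35.3, 23.8 and 51.7 CPM in the WT libraries with 71, 44 and 26 counts, and 42.9, 32.5 and 21.4 CPM in the Il6-/- libraries with 40, 9 and 3 counts, so that the order of the libraries was shared in Il6-/- but not in WT recipients.

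**Figure D4:**
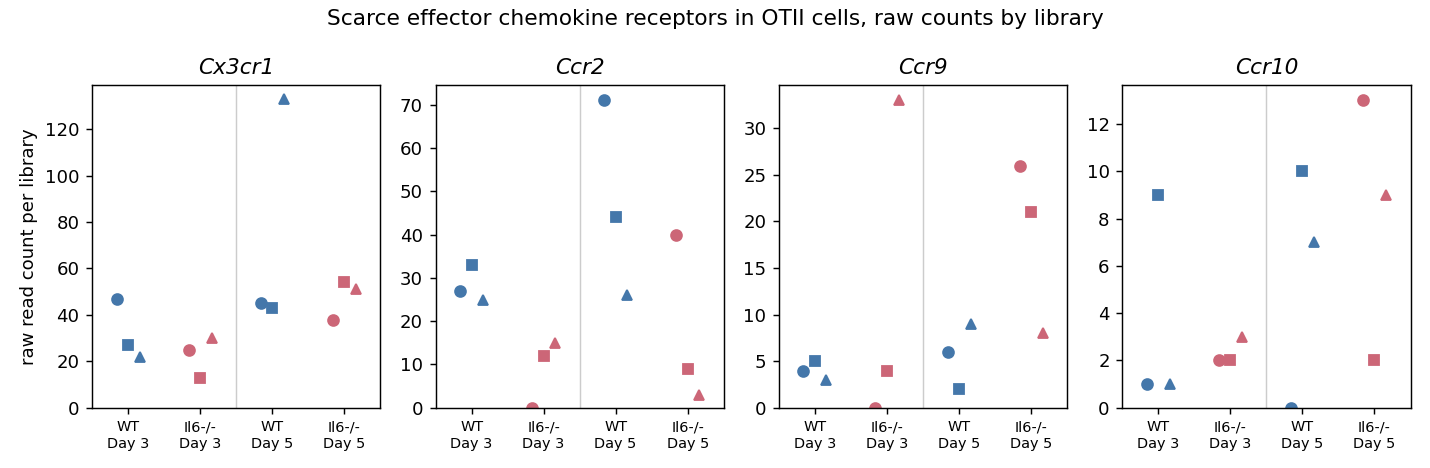
Raw read counts of the 4 scarce receptors in each library (circles, squares and triangles are replicates 1, 2 and 3; blue, WT recipients; red, Il6-/- recipients), on a vertical scale of its own for each gene, starting at 0. Single libraries set the highest values, such as 133 counts for Cx3cr1 in a WT library on Day 5 and 33 for Ccr9 in an Il6-/- library on Day 3.

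Ccr9, the gut-homing receptor, had 4, 5 and 3 counts in WT and 0, 4 and 33 in Il6-/- recipients on Day 3. On Day 5 the counts were 6, 2 and 9 in WT and 26, 21 and 8 in Il6-/- recipients. On Day 3 a single library held 33 of the counts in Il6-/- recipients. With all libraries no comparison passed (1.65, FDR = 0.326, on Day 3 and 1.82, FDR = 0.306, on Day 5 between the recipients; 0.56, FDR = 0.673, and 0.73, FDR = 0.485, between the days). Without the library with 33 counts the Day 3 value was -0.79, and the difference between the days in Il6-/- recipients was 3.17 and passed (FDR = 0.0161). In that fit Ccr9 was tested only through the Il6-/- libraries of Day 5 with 26 and 21 counts. These belong to the group where it was high, so that pass is no support for a rise. Ccr10, the receptor of Ccl27, had 1, 9 and 1 counts in WT and 2, 2 and 3 in Il6-/- recipients on Day 3. Its counts on Day 5 were 0, 10 and 7 in WT and 13, 2 and 9 in Il6-/- recipients. Its Il6-/- libraries on Day 3 were all at or under 3 counts, which is the level a count of 0 still allows, and no fold is given. No difference in Ccr10 was detectable at this depth. For Ccr9, the Day 3 value and that between the days in Il6-/- recipients depended on the library with 33 counts. Its Day 5 value between the recipients stayed between 1.45 and 2.26 with a library left out, and did not pass in any of these fits.

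Other chemokine receptors followed other patterns. Of 14 listed, 6 were tested: on Day 3 Cxcr5, the receptor that leads T cells into B cell follicles, fell, and on Day 5 between the recipients none passed. Cxcr5 read 149, 161 and 177 CPM in WT and 47.7, 67.7 and 63.1 CPM in Il6-/- recipients on Day 3 (-1.45, FDR = 7.09e-05), opposite in sign to the 3 effector receptors that rose. On Day 5 it read 165, 220 and 219 against 165, 260 and 225 CPM, and its interaction passed (-1.55, FDR = 0.00352). Between the days, Ccrl2 rose by 2.92 (FDR = 0.00126) in WT and by 1.94 (FDR = 0.00931) in Il6-/- recipients, from low levels. It read 0.351, 0.346 and 0.271 CPM on Day 3 and 3.05, 0.987 and 3.43 CPM on Day 5 in WT recipients. In Il6-/- recipients it read 1.74, 0.583 and 0.284 CPM, then 4.50, 1.93 and 3.54 CPM. Ccr7, which keeps T cells in the node, rose in WT recipients (0.47, FDR = 0.0223), and Cxcr5 rose in Il6-/- recipients (1.86, FDR = 2.1e-07).

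Few ligands of the receptors had enough reads in the OTII cells. Of 16 listed, 3 were tested (Ccl25, Ccl27a and Cxcl10), with Ccl25, the ligand of Ccr9, at 3.81 to 9.71 CPM and Ccl27a at 1.73 to 5.90 CPM, and none passed between the recipients on either day or in the interaction. Between the days Cxcl10, a ligand of Cxcr3, rose by 1.94 (FDR = 0.00836) in WT and by 2.01 (FDR = 0.00441) in Il6-/- recipients, from 0.521 to 1.64 CPM in the 6 Day 3 libraries and 1.07 to 6.30 CPM in the 6 Day 5 libraries. Ccl27a, a ligand of Ccr10, rose in WT recipients (1.02, FDR = 0.0227). Of 7 chemokines that T cells make, 3 were tested (Ccl3, Ccl4 and Ccl5). None passed between the recipients or in the interaction, while between the days Ccl4 rose in WT recipients (1.49, FDR = 0.0128) and Ccl3 (1.27, FDR = 0.049), Ccl4 (1.29, FDR = 0.0271) and Ccl5 (1.68, FDR = 0.0467) rose in Il6-/- recipients.

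Of 30 genes that carry the receptors' signal, 28 were tested. On Day 3, 2 were higher and 6 lower in Il6-/- recipients, beside 7.52% and 6.19% of all genes tested. Rgs16, which turns off G proteins, rose by 1.62 (FDR = 0.00572) and Rgs3 by 0.39 (FDR = 0.007). Gng2, a subunit of the G protein, fell (-0.47, FDR = 0.00131) with Rgs14 (-0.46, FDR = 0.00129) and the receptor kinase Grk6 (-0.35, FDR = 0.0165). On Day 5, 1 was higher and 4 were lower, beside 1.27% and 3.35% of all genes tested. The kinase subunit Pik3cg was higher (0.42, FDR = 0.0322). Among the lower were the Rac activator Prex1 (-0.94, FDR = 0.00626), the Gai protein Gnai2 (-0.32, FDR = 0.029) and Rgs10 (-0.49, FDR = 0.0378). Pik3cg (-0.70, FDR = 0.0163) and the arrestin Arrb2 (-0.51, FDR = 0.0391) passed the interaction. Between the days 11 rose and 10 fell in WT recipients, where 29.5% of all genes rose and 27.1% fell. In Il6-/- recipients 13 rose and 8 fell, where 30.4% of all genes rose and 30.1% fell. Gnai2 fell in both (-0.57, FDR = 1.62e-05, and -0.77, FDR = 7.25e-07) and Rac2, which drives the leading edge of a moving cell, rose in both (0.49, FDR = 5.88e-06, and 0.69, FDR = 1.62e-07). The median log2 fold change of this list was -0.138 on Day 3 and 0.0301 on Day 5 between the recipients.

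Of 21 factors that direct helper T cell lineages, 19 were tested. On Day 3, 4 were higher and 8 lower in Il6-/- recipients, beside 7.52% and 6.19% of all genes tested. Tbx21, which encodes T-bet, read 2.65, 2.32 and 2.71 CPM in WT and 12.1, 16.3 and 14.7 CPM in Il6-/- recipients (2.49, FDR = 8.7e-05), and Ahr (1.08, FDR = 0.00157) and the Th2 factor Gata3 (0.34, FDR = 0.0227) also rose. Tox2 (-2.20, FDR = 7.74e-06) and Bcl6 (-1.15, FDR = 0.000384) of follicular helper cells were among those that fell. Cxcr3 and Tbx21 were both higher in Il6-/- recipients on that day, and a link between them was not tested.

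On Day 5, 1 of the 19 factors was higher in Il6-/- recipients, Gata3 (0.35, FDR = 0.0383), and 3 were lower, among them Tox2 (-0.68, FDR = 0.036) and Foxo1 (-0.35, FDR = 0.0288). Of all genes tested, 1.27% were higher and 3.35% lower. Tox2 (-1.52, FDR = 0.00532) and Bcl6 (-1.12, FDR = 0.0137) passed the interaction. Between the days 8 rose and 6 fell in WT and 10 rose and 6 fell in Il6-/- recipients: Bcl6 rose (1.24, FDR = 9.14e-06, and 2.35, FDR = 2.82e-08), and Ahr fell in Il6-/- recipients (-2.04, FDR = 4.46e-07).

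For each of the 5 abundant receptors, the genes with the most similar pattern over the 12 libraries were found by Pearson's r of log2 CPM, as a description, since r follows the 4 group means. Ccr6 was closest to Atic (0.983), an enzyme of purine synthesis, Slc7a1 (0.979), a cationic amino acid transporter, and Ube2cbp (0.978). Ccr4 was close to Gm33887 (0.959) and Cap1 (0.944). Cxcr3 was closest to Plac8 (0.907), Car2 (0.884) and Cish (0.881), a feedback inhibitor of cytokine signalling. Ccr8 was closest to Mrps34 (0.908), Tbl1x (0.898) and Dph6 (0.894), and Cxcr6 to Phkb (0.888), Actr10 (0.875) and Prkcd (0.841).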

How the data were processed

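Poly(A) RNA from sorted OTII cells was sequenced as single-end reads. Per the submitters' processing notes and the methods, the authors used Trim Galore 0.4.4 for trimming, STAR 2.5.2a for alignment to GRCm39 and HTSeq 0.6.1p1, without strand, for counting. The deposited counts are raw and whole, 1 file per library. The 5 summary lines of each file (37.8% to 47.5% of its reads) were left out. The authors also deposited log2 CPM values of 11258 genes, with 7 of the 9 receptors (not Ccr9 or Ccr10), which served as an alternative.

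Counts were analysed in R 4.3.3 with edgeR 4.0.16 (filterByExpr, TMM, glmQLFit with 1 coefficient per group, glmQLFTest), and p-values were adjusted over 13570 genes. The script was tested on simulated data. The alternatives were other scalings and filters, limma 3.58.1, DESeq2 1.42.0, a replicate block, a 2-fold limit, fits within a day or genotype, and leaving out each library. Exact permutation of 3 against 3 libraries cannot reach a p below 0.1. Counting error limits Ccr9 and Ccr10.

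Replicate numbers come from the sample titles, which do not say what they mark. Deviations from the group means of same-numbered libraries correlated at 0.243, 0.206 and 0.129 between WT and Il6-/- recipients on Day 5. On Day 3 they correlated at 0.0333, 0.0599 and 0.0325. Over all genes, the numbers thus paired libraries more clearly on Day 5. Trbc1 followed them on both days. On Day 3 it read 290, 239 and 87.5 CPM in WT and 236, 193 and 78.9 CPM in Il6-/- recipients. Its Day 5 levels were 106, 5.56 and 543 against 96.3, 5.16 and 532 CPM. A pairing on Day 3 is therefore not excluded. With the replicate block, 2658 genes passed on Day 3 in place of 1861. Cxcr3, Ccr6 and Ccr8 passed there too (FDR = 0.001, 0.000766 and 0.00424). Apart from the fit with the replicate block, no fit used these numbers. No library was a copy of another. The comparisons share libraries and are not independent.

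The receptors and gene lists were chosen with earlier results of these data known. All 9 receptors are named in each comparison, and from each list at most 3 genes per direction, those of smallest p that passed, besides marker genes named for what they define. Some genes that these rules name are not reported here. The 3 most similar genes are named for receptors with a group mean of 10 CPM or more.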

Additional observations from a re-analysis of the deposited data

Results flagged for a closer look

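The effect of the recipient on Ccr4 differed between the days by a direct test, at the threshold. The log2 fold change of Il6-/- over WT recipients was -0.22 on Day 3 and 0.64 on Day 5, a difference of -0.86 (SE 0.236, FDR = 0.0499, edgeR's quasi-likelihood test). The call was lost in 10 of 12 fits that each left out a library (FDR 0.0559 to 0.127). It held in a fit with the replicate block (-0.87, FDR = 0.000466), whose numbers paired libraries more clearly on Day 5 than on Day 3. Ccr4 was higher than every WT library of its day in 0 of 3 Il6-/- libraries on Day 3 and in 2 of 3 on Day 5. The groups of 3 libraries are too small for a search for outlying libraries.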

How the results depend on the processing

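Counts of receptors that passed depended on the setting. On Day 3, 3 receptors passed, but 1 with the 2-fold limit, 0 in a test against a 2-fold change (glmTreat) and 1 to 3 when a library was left out. On Day 5, 1 passed, but 3 without a low-count filter, 2 in DESeq2, 3 with the replicate block, 0 with the 2-fold limit, 0 in glmTreat, 0 in the Day 5 libraries alone and 0 to 1 when a library was left out. For the interaction, 1 passed, but 3 without a filter, 2 in DESeq2, 2 with the replicate block (Ccr8 at 0.86, FDR = 0.022, beside Ccr4 at -0.87, FDR = 0.000466), 0 with the 2-fold limit, 0 in glmTreat and 0 to 1 with a library left out. Between the days in WT recipients 3 passed, but 4 without a filter (Cxcr3 as well, at -0.36, FDR = 0.0251), 0 in glmTreat and 2 to 3 with a library left out. In Il6-/- recipients 5 passed, but 2 with the 2-fold limit, 1 in glmTreat and 2 to 5 with a library left out. The stricter limits lower these counts by construction, and for the other settings the cause was not tested. Ccr4 was lower on Day 3 in the Day 3 libraries alone (-0.25, FDR = 0.0465), Ccr2 without a filter (-1.56, FDR = 0.0456). The replicate block ended the calls of Cx3cr1 between the days (1.14, FDR = 0.0629, in WT and 1.20, FDR = 0.0517, in Il6-/- recipients), where the numbers do not pair the libraries (correlations from -0.071 to 0.0707).

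Signs turned for 3 receptors that had not passed: Cxcr6 on Day 3 (-4e-04 in limma-voom, -0.0273 in limma-trend on the deposited values, -0.0052 with the replicate block), Cx3cr1 in the interaction (-0.0628 in limma-voom, -0.0359 with the replicate block) and Ccr2 in the interaction (0.1549 in limma-trend). With a library left out, values that changed sign ranged from -0.39 to 0.38 for Cxcr6 and -0.79 to 2.22 for Ccr9 on Day 3, -0.24 to 0.066 for Ccr8 and -0.71 to 0.20 for Cx3cr1 on Day 5, -2.61 to 0.40 for Ccr9, -0.55 to 0.37 for Cx3cr1 and -0.73 to 1.24 for Ccr2 in the interaction, -0.54 to 0.071 for Cxcr3, -0.0037 to 0.29 for Cxcr6 and -0.081 to 0.22 for Ccr8 between the days in WT recipients, and -0.43 to 1.54 for Ccr2 between the days in Il6-/- recipients. No value that had passed changed sign in any setting run, the other scalings included. Over all genes, 1861 passed on Day 3 (372 with the 2-fold limit, 35 in glmTreat), 626 on Day 5 (1397 without a filter, 1094 in DESeq2, 1592 with the replicate block, 359 in Day 5 alone, 155 with the limit, 1 in glmTreat) and 668 in the interaction (1300, 1111, 1564, then 187 with the limit and 4 in glmTreat). Between the days 7688 passed in WT (2996 with the limit, 1180 in glmTreat) and 8211 in Il6-/- recipients (3509 and 1530). Leaving out a library moved these counts over all genes, on which the background shares rest, to between 942 (without WT replicate 2 of Day 3) and 2042 on Day 3, between 225 (without WT replicate 1 of Day 5) and 1169 (without Il6-/- replicate 1 of Day 5) on Day 5, and between 235 (without WT replicate 2 of Day 3) and 943 in the interaction. Few counts limit Ccr2, Ccr9, Ccr10 and Cx3cr1.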
